A study of Mus musculus with 11 samples.

Results

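The TNF family ligands of T cells were followed here as 9 genes, chosen as a list of symbols: Tnf, Lta, Ltb, Cd40lg, Fasl, Tnfsf8, Tnfsf11, Tnfsf14 and Tnfsf10. All 9 were found by symbol, among 29224 genes of a bulk RNA-seq table of follicular regulatory T (Tfr) cells and among 31053 genes of a single-cell RNA-seq matrix. The bulk table holds 1 library labelled Sostdc1 knockout (KO; its genotype label reads Sostdc1 homo) and 1 labelled wild type (WT), both from Tfr cells of C57BL/6 draining lymph nodes sorted as CXCR5-positive, PD-1-positive and GITR-high. The single-cell library was made from CD44-positive CD4 T cells of C57BL/6 draining lymph nodes, from mice heterozygous for a Sostdc1-EGFP reporter. Sostdc1 is a secreted protein that blocks Wnt and BMP signals, and the question of the study is what follicular helper T (Tfh) cells that make it do for Tfr cells. The labels give neither age nor sex nor the structure of the alleles, nor how many mice were pooled.

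Ligands of the TNF family are made mostly as trimers anchored in the membrane, and they signal to a neighbouring cell through receptors of the TNF receptor family, which lead to NF-kappaB, to cell death or to both. CD4 T cells use them as contact signals: CD40 ligand drives B cells in the germinal centre, lymphotoxins organise lymphoid tissue, and Fas ligand and TRAIL can kill their target. Most of these genes are induced by T cell receptor signalling, and Treg cells are known for low CD40 ligand.

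Tnf, Lta and Ltb sit side by side on chromosome 17, and their values went different ways in the bulk libraries, so the promoters of these neighbours are shown with that of Tnfsf8, the ligand with the largest bulk ratio. The sequences are from RefSeq, build GRCm38.p6, which had an entry for 8 of the 9 genes. Each covers 250 bases before and 50 bases after the start site, 5′ to 3′ on the gene's strand. Capitals mark matches on either strand to GGAAA, the core bound by NFAT factors, to the kappaB consensus bound by NF-kappaB, to TGANTCA, bound by AP-1, and to TATAAA.
Tnf, chr17:35201958-35202257, minus strand: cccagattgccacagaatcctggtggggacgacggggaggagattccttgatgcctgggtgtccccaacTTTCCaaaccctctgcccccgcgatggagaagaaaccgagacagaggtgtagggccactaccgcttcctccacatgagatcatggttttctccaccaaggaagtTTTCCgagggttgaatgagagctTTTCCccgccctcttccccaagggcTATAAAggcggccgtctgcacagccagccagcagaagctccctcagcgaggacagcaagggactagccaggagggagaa
Lta, chr17:35205302-35205601, minus strand: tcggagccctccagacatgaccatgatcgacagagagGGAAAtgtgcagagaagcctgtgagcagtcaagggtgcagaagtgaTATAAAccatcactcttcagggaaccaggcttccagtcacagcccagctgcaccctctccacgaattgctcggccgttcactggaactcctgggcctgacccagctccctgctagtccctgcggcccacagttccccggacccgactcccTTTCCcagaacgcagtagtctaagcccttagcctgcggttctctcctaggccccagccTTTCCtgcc
Ltb, chr17:35194257-35194556, plus strand: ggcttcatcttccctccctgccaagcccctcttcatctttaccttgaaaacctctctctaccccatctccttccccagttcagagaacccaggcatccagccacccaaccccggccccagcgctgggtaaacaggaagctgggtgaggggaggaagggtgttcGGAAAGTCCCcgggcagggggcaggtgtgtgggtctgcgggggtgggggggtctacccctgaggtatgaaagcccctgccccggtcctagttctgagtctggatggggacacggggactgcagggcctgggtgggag
Tnfsf8, chr4:63861235-63861534, minus strand: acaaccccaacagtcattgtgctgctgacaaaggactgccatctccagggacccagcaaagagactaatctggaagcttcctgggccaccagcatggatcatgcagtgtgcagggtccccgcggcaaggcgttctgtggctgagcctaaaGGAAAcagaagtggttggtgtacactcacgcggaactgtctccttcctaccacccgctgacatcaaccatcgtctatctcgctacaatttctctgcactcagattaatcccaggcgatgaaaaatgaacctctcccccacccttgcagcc
The NFAT core was matched 3 times in the promoters of Tnf and of Lta, and 1 time in those of Ltb and Tnfsf8. It is common, with a match in 61.3% of 27025 RefSeq promoters of this length. The kappaB consensus had a match in Ltb alone among the 8 ligands, GGAAAGTCCC, which overlaps the NFAT core there, against 8.18% of all promoters. TATAAA was matched in Tnf, Lta and Tnfsf11 (14.2% of all promoters) and TGANTCA in Tnfsf14 alone (7.93%). These are matches of letters in a window and do not show binding.

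The bulk libraries hold 27777625 counts in the library labelled KO, against 18076300 in that labelled WT, and the single-cell library 15002 barcodes with 106127466 unique molecular identifiers (UMIs), from which 10511 T cells were kept. The targeted gene went against the bulk labels, at 458 counts of Sostdc1 in the library labelled KO, against 4 in that labelled WT, so directions below are stated for the libraries as labelled and compare 2 libraries, not genotypes. The libraries also differed in X- and Y-linked genes, with Xist at 1232 and 2.16 CPM and Ddx3y at 0.216 and 197 CPM in the libraries labelled KO and WT (CPM, counts scaled to a library total of 1e6). The genes of the sort stood at 62.8 and 55.7 CPM (Cxcr5), 229 and 164 CPM (Pdcd1, for PD-1) and 276 and 165 CPM (Tnfrsf18, for GITR) in the libraries labelled KO and WT, and Foxp3, the Treg factor, at 1164 and 1471 CPM in the same order. With 1 library a group there was no replicate to check a difference and no test was made. Intervals are 95% intervals that cover counting error only. In bulk RNA, more cells of a type and more RNA per cell cannot be told apart.

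Of the 9 ligands, 6 were higher by 2-fold or more and 1 was lower by 2-fold or more in the Tfr library labelled KO, on the scale of log2(CPM + 1). All 9 had at least 5 CPM in at least 1 library. Among all 10194 genes with that level, 2.6% were higher and 9.12% lower by as much. Higher genes were 22.2% of those past 2-fold, against 37.6% under TMM scaling and 45.9% under median-of-ratios scaling, neither of which changed the ligands' counts. The ligands' median log2 ratio was 1.44, beside −0.04 over all these genes. The 9 ligands were chosen with earlier results of these data known, so these counts are description only.

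**Figure D1:**
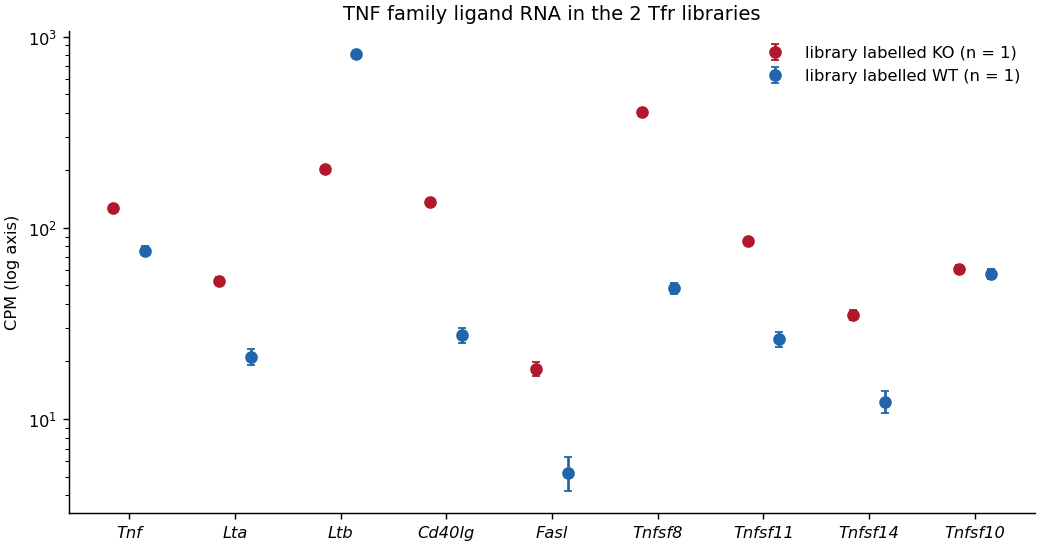
Ligand RNA in bulk Tfr libraries, in CPM on a log axis, with the library labelled KO left of the library labelled WT for each gene. Bars are exact Poisson 95% intervals of the counts; Tnfsf8 stands at 404 CPM in the library labelled KO, against 48.4 CPM in that labelled WT, and Ltb at 204 CPM, against 806 CPM.

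Tnfsf8 and Cd40lg had the largest ratios of the 9. Tnfsf8 (ENSMUSG00000028362, chromosome 4), which encodes CD30 ligand, had 11214 counts or 404 CPM in the library labelled KO, against 875 counts or 48.4 CPM in that labelled WT, a ratio of 8.34 (7.78 to 8.94). With the labels exchanged the same counts give a ratio of 0.120 (0.112 to 0.128). Cd40lg (ENSMUSG00000031132, chromosome X), the gene for CD40 ligand, had 3811 counts or 137 CPM in the library labelled KO, against 495 counts or 27.4 CPM in that labelled WT, a ratio of 5.01 (4.56 to 5.51). For both genes, and for the other ligands counted as higher, the interval of the ratio lay wholly above 2. The libraries also differed in X- and Y-linked genes, and the part of this in the ratio of X-linked Cd40lg was not tested. Tnfsf11 (ENSMUSG00000022015, chromosome 14), which encodes RANKL, the ligand that drives osteoclasts and lymph node development, had 2371 counts or 85.4 CPM in the library labelled KO, against 472 counts or 26.1 CPM in that labelled WT, a ratio of 3.27 (2.96 to 3.62). Tnfsf14 (ENSMUSG00000005824, chromosome 17), which encodes LIGHT, a ligand of HVEM and of the lymphotoxin beta receptor, had 973 counts or 35.0 CPM in the library labelled KO, against 222 counts or 12.3 CPM in that labelled WT, a ratio of 2.85 (2.46 to 3.31).

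The death ligands differed from each other. Fasl (ENSMUSG00000000817, chromosome 1), whose product kills cells that carry Fas, had 508 counts or 18.3 CPM in the library labelled KO, against 94 counts or 5.2 CPM in that labelled WT, a ratio of 3.52 (2.82 to 4.43). Tnfsf10 (ENSMUSG00000039304, chromosome 3), which encodes TRAIL, had 1693 counts or 60.9 CPM in the library labelled KO, against 1037 counts or 57.4 CPM in that labelled WT. Its ratio of 1.06 has an interval (0.983 to 1.15) that holds 1, so no difference was detectable beyond counting error.

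The 3 neighbours on chromosome 17 did not go together. Lta (ENSMUSG00000024402), the gene for lymphotoxin alpha, had 1465 counts or 52.7 CPM in the library labelled KO, against 382 counts or 21.1 CPM in that labelled WT, a ratio of 2.50 (2.23 to 2.80). Tnf (ENSMUSG00000024401), the cytokine that gave the family its name, had 3505 counts or 126 CPM in the library labelled KO, against 1371 counts or 75.8 CPM in that labelled WT, a ratio of 1.66 (1.56 to 1.77) that stayed under 2-fold. Ltb (ENSMUSG00000024399), whose product anchors lymphotoxin alpha in the membrane, went the other way, with 5653 counts or 204 CPM in the library labelled KO, against 14567 counts or 806 CPM in that labelled WT, 3.96-fold lower in the library labelled KO. All 3 are short genes, with spans of 2641 bases (Tnf), 2414 bases (Lta) and 1799 bases (Ltb) in RefSeq, where Lta overlaps Mir6974 and Ltb overlaps Mir6973a. How the counting treated reads of overlapping genes was not tested. Genes with a span up to 3000 bases were past 2-fold more often, 7.69% higher and 20% lower of 559. The part of gene length in these ratios was not tested.

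**Figure D2:**
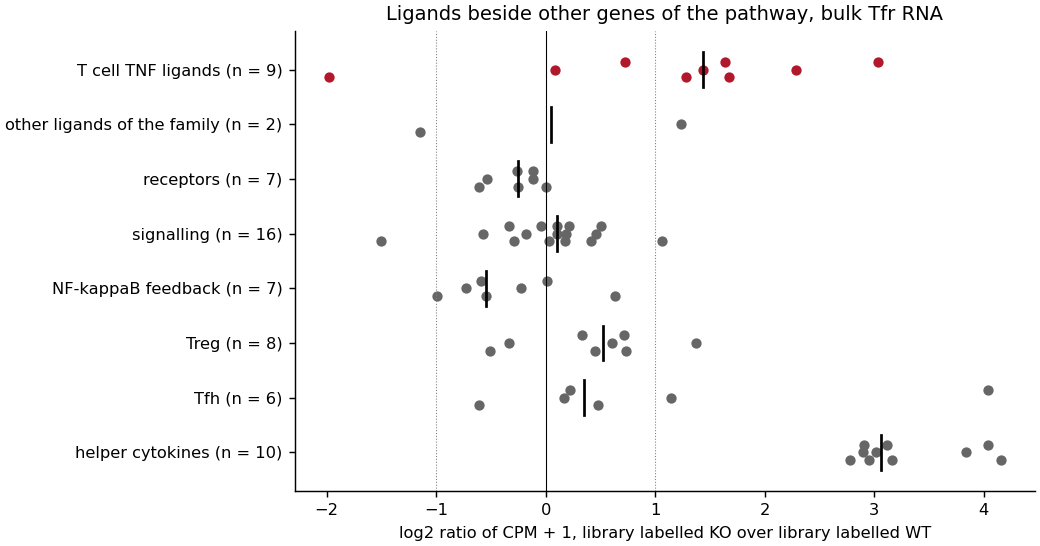
Log2 ratio of CPM + 1, library labelled KO over library labelled WT, for each gene with at least 5 CPM in 1 library (points) and each list's median (black bar); dotted lines mark 2-fold. The ligands have a median of 1.44, receptors one of −0.25 and the helper cytokines one of 3.07. The lists were chosen with earlier results of these data known.

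The receptors of these ligands that had at least 5 CPM differed by less than 2-fold between the libraries. Of 10 receptor genes listed, 7 had at least 5 CPM and 0 of these were 2-fold apart, with a median log2 ratio of −0.25. Among all 10194 genes with that level 2.6% were higher and 9.12% lower, so 0 of 7 does not set the receptors apart. Under that level, Ltbr had 4 counts in the library labelled KO, against 16 in that labelled WT, and Tnfrsf11a had 43 and 17 in the same order. Tnfrsf1b, which encodes the TNF receptor typical of Treg cells, stood at 2105 CPM in the library labelled KO, against 2096 CPM in that labelled WT. Tnfrsf8, the CD30 gene and thus the receptor of the ligand with the largest ratio, stood at 166 CPM in the library labelled KO, against 198 CPM in that labelled WT. Among the 7 genes with at least 5 CPM, Tnfrsf14 and Tnfrsf1a differed most. Tnfrsf14, the HVEM gene, stood at 47.7 CPM in the library labelled KO, against 73.3 CPM in that labelled WT. Tnfrsf1a stood at 20.8 CPM and 30.5 CPM in the same order.

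Of 16 signalling genes downstream of the receptors, all 16 had at least 5 CPM, with a median log2 ratio of 0.10. Of these, 1 was 2-fold higher and 1 lower, beside 2.6% and 9.12% of all 10194 genes with that level. Traf6, an adaptor used by CD40 and RANK, stood at 222 CPM in the library labelled KO, against 106 CPM in that labelled WT. Tradd, the adaptor of TNF receptor 1, stood at 18.7 CPM in the library labelled KO, against 54.8 CPM in that labelled WT. Of 7 genes of NF-kappaB feedback, 0 were 2-fold apart on the scale of log2(CPM + 1) and the median was −0.55. On that scale Nfkbie fell just short, at −0.989, while its CPM alone were 2.01-fold lower in the library labelled KO. The largest differences of these 7 genes were Nfkbie, an NF-kappaB inhibitor, at 47.3 CPM in the library labelled KO, against 94.9 CPM in that labelled WT, and Tnip1, a partner of the inhibitor A20, at 165 CPM and 274 CPM in the same order. Of 9 further ligands of the family, 2 had at least 5 CPM: Tnfsf4, the OX40 ligand gene, at 5.80 CPM in the library labelled KO, against 1.88 CPM in that labelled WT, and Tnfsf9, the 4-1BB ligand gene, at 8.57 CPM in the library labelled KO, against 20.2 CPM in that labelled WT.

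Helper cytokines were also higher in the library labelled KO. All 10 listed were at least 2-fold higher, beside 2.6% of all 10194 genes with at least 5 CPM. The list was chosen with earlier results of these data known, so this count is no independent support. Its summed level was 2383 CPM in the library labelled KO, against 261 CPM in that labelled WT, and the lowest ratio was 6.93, that of Ifng. In the single-cell library described below, the same list summed to 104 CPM in cells with Tfr markers and 106 CPM in other T cells. Tfh cells had 278 CPM and Treg cells 23.7 CPM. Single cytokines are given without intervals, and their levels with Tfr markers rest on few UMIs. Il21, Il4 and Il22 stood at 31.4, 22.7 and 34.0 CPM with Tfr markers, against 9.14, 3.85 and 20.9 CPM in other T cells. Ifng, Il17a, Il17f and Il2 stood at 1.74, 1.74, 6.98 and 5.23 CPM with Tfr markers, against 26.7, 17.6, 16.8 and 9.22 CPM. With Tfr markers these 4 rest on 2, 2, 8 and 6 UMIs, and Ifng and Il17a lie under the floor of 3 counts, 2.62 CPM. Csf2, Il13 and Il5 had 0 UMIs with Tfr markers, and at most 1.13 CPM in other T cells, which is under that floor, so no difference can be read. Il21, a cytokine of Tfh cells, had 82.8 CPM in the library labelled KO, against 4.09 CPM in that labelled WT. Of the 6 Tfh markers with at least 5 CPM, 2 were 2-fold higher, Il21 and Cd200. Of the 8 Treg markers, 1 was 2-fold higher, Gpr83, and 0 were lower, and their summed level was 9973 CPM in the library labelled KO, against 7580 CPM in that labelled WT. The myeloid list summed to 50.04 CPM and 20.2 CPM and the list of CD8 and NK genes to 26.5 CPM and 13.1 CPM, in the libraries labelled KO and WT. Of these, Lyz2, Xcr1 and Klrk1 were past 2-fold, with Lyz2 at 25.9 CPM in the library labelled KO, against 8.80 CPM in that labelled WT. The B cell list summed to 10.8 CPM and 12.4 CPM in the same order, the plasma cell list to 7.99 CPM and 6.92 CPM and the gamma-delta list to 2.45 CPM and 1.33 CPM. No gene of these lists was at 0 in either library. The part of these markers in the ligand ratios was not tested.

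The single-cell library shows which CD4 T cells carry each ligand. T cells were gated on UMIs of markers. The Tfr gate (UMIs of Cxcr5, Pdcd1 and Foxp3) held 87 cells, the Tfh gate (Cxcr5 and Pdcd1 but no Foxp3) 781 and the Treg gate (Foxp3 without Cxcr5 and Pdcd1) 1638. A further 510 cells had Foxp3 with 1 of the other markers, 1056 had Pdcd1 alone, 634 had Cxcr5 alone, and 5805 had none of the 3 (triple negative). The last 3 groups make up 7495 other T cells. Median depths were 9937 UMIs per cell in the Tfr gate, 7387 in the Tfh gate, 5863 in the Treg gate and 5794 in other T cells, so a level is given as CPM over all UMIs of a gate and shares of cells also after thinning each cell to 3000 UMIs. The gates carried markers they were not drawn on: Il21 and Ascl2 stood at 31.4 and 16.6 CPM in the Tfr gate, 75.4 and 32.8 CPM in the Tfh gate, and 0.538 and 0.461 CPM in the Treg gate. The 8 Treg markers, Foxp3 included, summed to 2004 CPM in the Tfr gate, 462 CPM in the Tfh gate and 2273 CPM in the Treg gate. The gate named Tfr thus held RNA of both programmes. Its median doublet score was 0.0677, beside 0.0508 in the Tfh gate and 0.0521 in the Treg gate, and the part of doublets in its levels was not tested.

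**Figure D3:**
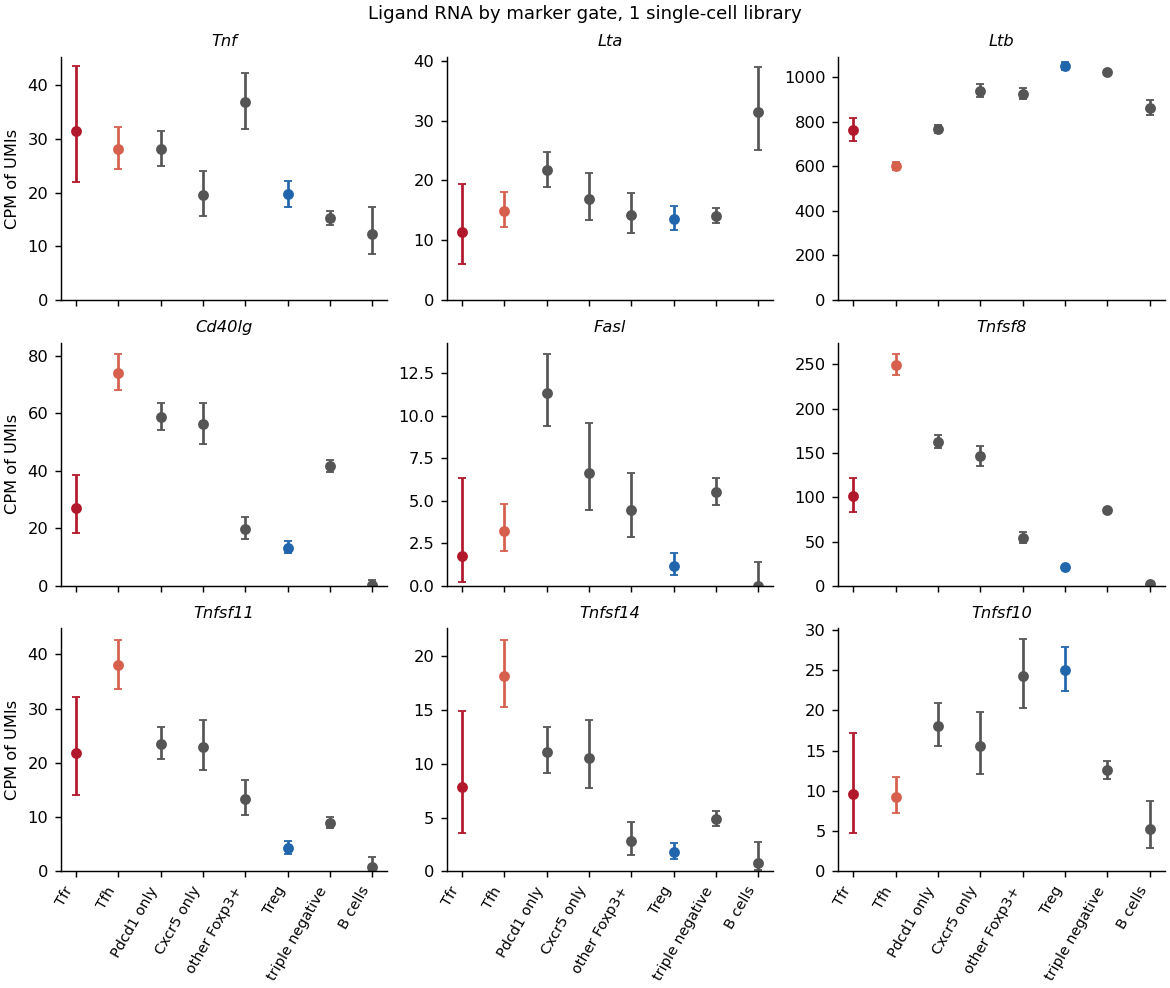
Level of each ligand in CPM of UMIs by marker gate in the single-cell library, with exact Poisson 95% intervals as bars; each panel starts at 0. Tnfsf8, Cd40lg, Tnfsf11 and Tnfsf14 are highest in the Tfh gate, at 250, 74.0, 38.0 and 18.2 CPM, whereas Ltb and Tnfsf10 are lower in the Tfh gate than in the Treg gate.

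Tnfsf8, Cd40lg and Tnfsf11 stood higher in Tfh cells than in Treg cells. Of the 6 ligands with at least 20 CPM in 1 of these gates, 3 were higher by 2-fold or more and 1 lower in the Tfh gate. Over all 5673 genes with that level the shares were 3.61% and 4.2%. Of the ligands past 2-fold, only Tnfsf8 reached 20 CPM in both gates. Cd40lg and Tnfsf11 reached it in the Tfh gate alone and Tnfsf10 in the Treg gate alone, so the counts are description only. Tnfsf8 stood at 250 CPM in the Tfh gate (239 to 261) and 20.8 CPM in the Treg gate (18.4 to 23.5), a ratio of 12 (10.6 to 13.7). After thinning, 44.8% of Tfh cells (41.2 to 48.4) and 6.62% of Treg cells (5.42 to 7.99) had a Tnfsf8 UMI, or 69.9% and 12.3% unthinned. Tfh cells were 7.43% of T cells and held 23.3% of their 7950 Tnfsf8 UMIs.

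Cd40lg stood at 74.0 CPM in the Tfh gate (68.0 to 80.5) and 13.3 CPM in the Treg gate (11.4 to 15.4), a ratio of 5.57 (4.69 to 6.65). The thinned shares were 19.1% of Tfh cells (16.4 to 22.1) and 4.30% of Treg cells (3.34 to 5.45), or 40.6% and 8.30% unthinned. Tnfsf11 stood at 38.0 CPM in the Tfh gate (33.7 to 42.7) and 4.30 CPM in the Treg gate (3.25 to 5.59), a ratio of 8.82 (6.60 to 12). Tnfsf14 was under the level of 20 CPM in both gates, at 18.2 CPM in the Tfh gate (15.2 to 21.5) and 1.77 CPM in the Treg gate (1.12 to 2.65), a ratio of UMIs of 10.3 (6.58 to 16.8). For these 4 ligands the intervals of the 2 gates did not overlap.

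B cells caught in the sort give a background for genes that they should lack. They were chosen with 0 UMIs of Cd3d, Cd3e, Cd3g and Cd4, so their shares may understate it. Of 443 B cells (median depth 4693 UMIs), 0.226% had a Cd40lg UMI, 0.903% a Tnfsf8 UMI, 0.451% a Tnfsf11 UMI and 0.451% a Tnfsf14 UMI. At equal depth the Treg gate had larger shares for Cd40lg (4.30%) and Tnfsf8 (6.62%), beyond the B cell intervals (up to 0.913% and up to 2.17%). Its share for Tnfsf11 was 3.05% unthinned, beyond the B cell interval (up to 1.62%), but 0.927% after thinning, within it (up to 1.38%). Its share for Tnfsf14 lies within the B cell interval unthinned (1.40%, up to 1.62%) and thinned (0.794%, up to 1.38%). Tnfsf14 in the Treg gate was thus not separated from background, nor was the thinned share of Tnfsf11. As CPM over all UMIs, Tnfsf11 in the Treg gate, at 4.30 CPM (3.25 to 5.59), lay above B cells, at 0.750 CPM (0.0908 to 2.71). For Tnfsf14 these intervals overlapped. With levels this low, the ratios of both genes over this gate give no exact fold.

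Ltb and Tnfsf10 were lower in Tfh cells. Ltb stood at 600 CPM in the Tfh gate (583 to 618) and 1047 CPM in the Treg gate (1029 to 1064), a ratio of 0.574 (0.554 to 0.593). It was widespread, with a UMI in 94.0% of Tfh cells and 96.8% of Treg cells, or 78.4% and 90.0% after thinning. Over 14 exclusive groups of T cells split by marker genes, Ltb levels were lower where median depth was higher (Pearson r −0.809). The Tfh gate was deeper than the Treg gate, and the part of depth in the Ltb ratio was not tested. B cells, which are known to express lymphotoxins, had Ltb at 862 CPM and Lta at 31.5 CPM. Tnfsf10 stood at 9.29 CPM in the Tfh gate (7.23 to 11.8) and 25 CPM in the Treg gate (22.4 to 27.9), a ratio of 0.371 (0.282 to 0.482), and 26.1% of its T cell UMIs lay in the Treg gate. Its thinned shares were 2.75% of Tfh cells (1.71 to 4.17) and 8.01% of Treg cells (6.69 to 9.49).

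The other ligands were rarer or more even. Tnf stood at 28.1 CPM in the Tfh gate (24.4 to 32.2) and 19.7 CPM in the Treg gate (17.3 to 22.2), and it was uneven between cells: of 198 Tnf UMIs in cells with Foxp3 and 1 other marker, 56 came from 1 cell. Lta had overlapping intervals, at 14.9 CPM in the Tfh gate (12.3 to 18) and 13.6 CPM in the Treg gate (11.7 to 15.8). Fasl was scarce, with 24 UMIs or 3.23 CPM in the Tfh gate and 15 UMIs or 1.15 CPM in the Treg gate, a ratio of 2.80 (1.41 to 5.75). B cells had 0 Fasl UMIs, for which the exact Poisson interval reaches 1.38 CPM. With at least 2 UMIs of every marker, which left 338 Tfh cells, Fasl stood at 0.274 CPM in the Tfh gate and 0.694 CPM in the Treg gate. That Tfh value lies under 0.404 CPM, the level of 3 counts over the full Tfh gate. It shows no reversal, but with UMIs this few no direction can be given for Fasl.

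For Tnfsf8 the Tfr gate lay between Tfh and Treg cells, on few cells. Tnfsf8 stood at 101 CPM in the Tfr gate (83.6 to 121), 4.86-fold the level of the Treg gate (3.88 to 6.06) and 0.405 of that of the Tfh gate (0.333 to 0.489). The thinned share of Tfr cells was 22.1% (13.9 to 32.3), between those of both gates. With cells held under 5% mitochondrial UMIs the level was 63.6 CPM in the Tfr gate, 220 CPM in the Tfh gate and 15.3 CPM in the Treg gate. Cd40lg stood at 27.0 CPM in the Tfr gate (18.4 to 38.4), 2.03-fold the level of the Treg gate (1.34 to 2.99) and 0.365 of that of the Tfh gate (0.246 to 0.525). After thinning, 5.81% of Tfr cells (1.91 to 13.0) had a Cd40lg UMI, which overlaps the 4.30% of Treg cells, so at equal depth no difference from the Treg gate was detectable. The level rests on 31 UMIs and moved with the cells let in. With cells held under 5% mitochondrial UMIs it was 13.2 CPM in the Tfr gate and 12.2 CPM in the Treg gate, and with at least 2 UMIs of each marker, which left 10 Tfr cells, 14.2 CPM and 9.48 CPM in the same order.

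Tnfsf11 stood at 21.8 CPM in the Tfr gate (14.1 to 32.2), below the Tfh gate and 5.07 times that of the Treg gate (3.03 to 8.26). Its thinned share of 9.30% of Tfr cells (4.10 to 17.5) overlaps that of the Tfh gate, 11.6% (9.46 to 14.1). Tnfsf14, on 9 UMIs, stood at 7.85 CPM in the Tfr gate (3.59 to 14.9), below the Tfh gate. Ltb stood at 763 CPM in the Tfr gate (713 to 816), above the Tfh gate and below the Treg gate. Tnfsf10, at 9.59 CPM in the Tfr gate (4.79 to 17.2), was lower than in the Treg gate and did not differ from the Tfh gate beyond counting error. Tnf stood at 31.4 CPM in the Tfr gate (21.99 to 43.5), 1.60-fold the level of the Treg gate (1.09 to 2.27), with a thinned share of 4.65% of Tfr cells (1.28 to 11.5) that overlaps the 5.29% of Treg cells. Lta, at 11.3 CPM in the Tfr gate (6.04 to 19.4), overlapped both gates, and Fasl had 2 UMIs there. Of the ligands with at least 20 CPM in 1 gate, 2 of 6 were at least 2-fold higher and 1 lower in the Tfr gate than in the Treg gate, beside 1.93% and 1.64% of 5687 genes. Of those past 2-fold, Tnfsf11 reached 20 CPM in the Tfr gate alone and Tnfsf10 in the Treg gate alone. Without removal by doublet score 3 were higher and 0 lower, with a limit of 200 genes 3 were higher, and with under 5% mitochondrial UMIs or at least 2 UMIs of each marker 1 was higher. Against the Tfh gate, 0 of 5 were 2-fold higher and 2 lower, beside 2.76% and 1.67% of 5754 genes, and with at least 2 UMIs of each marker 1 was lower.

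Over the exclusive gates the order of levels differed by ligand. Cd40lg stood highest in the Tfh gate at 74.0 CPM. It was followed by cells with Pdcd1 alone at 58.7 CPM (54.1 to 63.6) and cells with Cxcr5 alone at 56.2 CPM (49.4 to 63.7), which overlap each other. Triple negative cells came next at 41.7 CPM (39.6 to 43.9), and the gates with Foxp3 were lowest, the Tfr gate at 27.0 CPM, cells with Foxp3 and 1 other marker at 19.9 CPM (16.3 to 24.0) and the Treg gate at 13.3 CPM. The first 2 of these overlap.

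Tnfsf8 stood at 250 CPM in the Tfh gate, 163 CPM with Pdcd1 alone (155 to 171) and 146 CPM with Cxcr5 alone (135 to 158), of which the last 2 overlap. It was 101 CPM in the Tfr gate and 85.2 CPM in triple negative cells (82.2 to 88.3), which overlap, and lowest in cells with Foxp3 and 1 other marker at 54.2 CPM (48.2 to 60.8) and in the Treg gate. Tnfsf11 and Tnfsf14 were likewise highest in the Tfh gate, and their levels in cells with Pdcd1 alone (23.5 and 11.1 CPM) and with Cxcr5 alone (22.9 and 10.6 CPM) overlapped for each gene.

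Fasl was highest outside the follicular gates, in cells with Pdcd1 alone at 11.3 CPM (9.37 to 13.6), and these held 28.2% of its 411 T cell UMIs. Tnfsf10 was highest in the Treg gate and in cells with Foxp3 and 1 other marker, at 25 and 24.3 CPM, which overlap. Against all other T cells, the Tfh gate had 2 of 5 ligands with at least 20 CPM at least 2-fold higher and 0 lower, beside 3.37% and 1.75% of 5494 genes. These were Tnfsf8, at 250 CPM in the Tfh gate and 106 CPM in other T cells, and Tnfsf11, at 38.0 CPM and 13.1 CPM in the same order. Tnfsf11 reached 20 CPM in the Tfh gate alone.

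**Figure D4:**
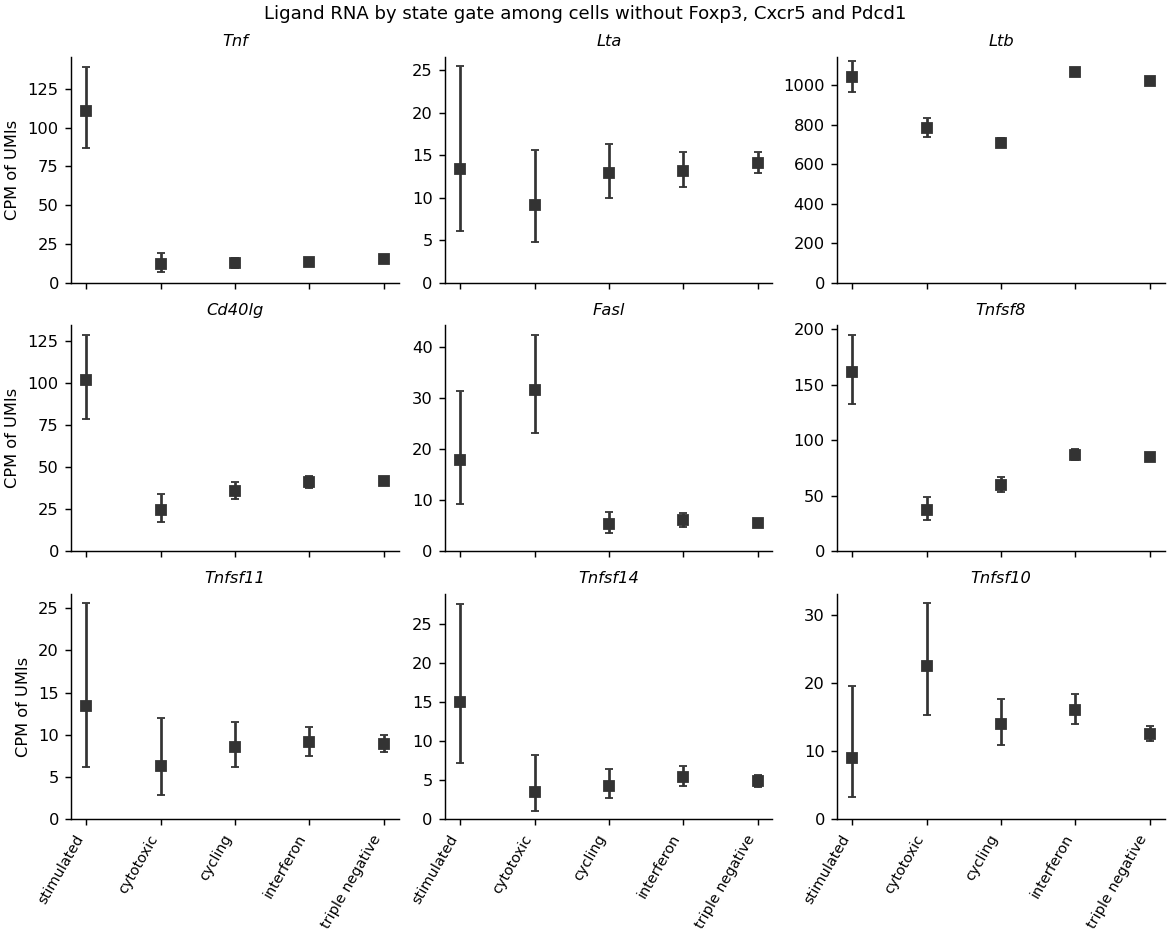
Level of each ligand in CPM of UMIs in triple negative T cells with a state marker, beside all triple negative cells, with exact Poisson 95% intervals as bars; each panel starts at 0 and a cell can be in more than 1 gate. Tnf is highest in stimulated cells (111 CPM) and Fasl in cytotoxic cells (31.6 CPM).

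Among triple negative cells, gates on state markers separated the ligands further. The stimulated gate, 98 cells with Egr2, a gene induced by T cell receptor signalling, was set beside all 5805 triple negative cells, which include them. Tnf stood at 111 CPM in stimulated cells (86.9 to 139) and 15.2 CPM in all triple negative cells (13.99 to 16.5). After thinning, 23.4% of stimulated cells (15.3 to 33.3) and 3.72% of all triple negative cells (3.22 to 4.26) had a Tnf UMI. Cd40lg stood at 102 CPM in stimulated cells (78.9 to 129) and 41.7 CPM in all triple negative cells. Tnfsf8 stood at 161 CPM in stimulated cells (132 to 195) and 85.2 CPM in all triple negative cells. Its thinned shares overlapped, at 19.1% of stimulated cells (11.8 to 28.6) and 20.9% of all triple negative cells (19.9 to 22.1), with 3.18 and 1.62 UMIs per cell that had any.

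Ltb and Lta were even between these cells, at 1040 and 13.5 CPM in stimulated cells and 1022 and 14.1 CPM in all triple negative cells, with overlapping intervals. Tnf and its neighbours thus differed in single cells as well. Fasl and Tnfsf14 were rarer, at 17.9 and 14.9 CPM in stimulated cells and 5.51 and 4.88 CPM in all triple negative cells. For both genes the CPM intervals did not overlap. They rest on 12 Fasl UMIs in 8 stimulated cells and 10 Tnfsf14 UMIs in 5. The thinned shares overlapped. For Fasl they were 3.19% of stimulated cells (0.663 to 9.04) and 1.62% of all triple negative cells (1.30 to 2.00). For Tnfsf14 they were 4.26% (1.17 to 10.5) and 1.49% (1.19 to 1.86) in the same order. Tnfsf11 and Tnfsf10 rested on 9 and 6 UMIs in stimulated cells, at 13.5 and 8.97 CPM, against 8.93 and 12.6 CPM in all triple negative cells, with overlapping intervals. Fasl was highest in the cytotoxic gate, 215 cells with Ccl5 and either Nkg7 or Eomes, at 31.6 CPM (23.0 to 42.2), against 5.51 CPM in all triple negative cells (4.77 to 6.32). In the same gate Cd40lg stood at 24.6 CPM (17.1 to 34.2) and Tnfsf8 at 37.2 CPM (27.9 to 48.6), their lowest levels among the 4 states shown. Cd4 had a UMI in 38.1% of cells of the cytotoxic gate and 57.1% of all triple negative cells.

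Within the Tfh gate, 129 cells with a Sostdc1 UMI were set against 652 without, with median depths of 7043 and 7418 UMIs. Tnfsf8 stood at 371 CPM in Sostdc1-positive cells (338 to 407) and 226 CPM in Sostdc1-negative cells (215 to 238), a ratio of 1.64 (1.47 to 1.83). The thinned shares were 55.5% of Sostdc1-positive cells (46.4 to 64.3) and 42.6% of Sostdc1-negative cells (38.7 to 46.6), whose intervals overlap slightly. Cd40lg differed by less than counting error, at 80.2 CPM in Sostdc1-positive cells (65.0 to 97.8) and 72.8 CPM in Sostdc1-negative cells (66.3 to 79.9). The ratio intervals of the other 7 ligands also held 1. Of 6 ligands with at least 20 CPM, 0 were 2-fold apart in either direction, beside 0.464% higher and 0.393% lower of 5601 genes. Other genes moved beside this. The Tfh markers summed to 1128 CPM in Sostdc1-positive cells and 971 CPM in Sostdc1-negative cells, the gamma-delta list to 2.48 CPM and 20.7 CPM and the helper cytokines to 221 CPM and 290 CPM in the same order. The cytokines did not go together. Il22 stood at 38.0 CPM in Sostdc1-positive cells and 132 CPM in Sostdc1-negative cells, and Il2 at 7.44 CPM and 26.5 CPM in the same order. Il17a and Il17f, on 2 and 1 UMIs in Sostdc1-positive cells, were also lower there. Ifng, Il21 and Il4 went the other way, at 19.8, 95.1 and 57.9 CPM in Sostdc1-positive cells, against 5.14, 71.5 and 42.9 CPM in Sostdc1-negative cells. The part of these genes was not tested.

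At equal depth Tnfsf8 was found in larger shares of those other T cells that had a UMI of Tnfsf11 or Tnfsf14. Of 230 thinned cells with a Tnfsf11 UMI, 44.3% had a Tnfsf8 UMI (37.8 to 51.0), against 22.7% of 6690 cells without Tnfsf11 (21.7 to 23.7). For Tnfsf14 the Tnfsf8 shares were 42.7% of 143 cells with it (34.4 to 51.2) and 23.0% of those without (22 to 24.0). Tnfsf14 itself had a UMI in 3.91% of cells with Tnfsf11 (1.80 to 7.30) and 2.00% of cells without (1.68 to 2.37), which overlap. Cd40lg had a UMI in 16.4% of 1621 cells with Tnfsf8 (14.6 to 18.3) and 11.5% of 5299 cells without (10.6 to 12.4). Inside the Tfh gate the Cd40lg shares overlapped, at 19.9% of 342 cells with Tnfsf8 (15.8 to 24.5) and 18.5% of 422 cells without (14.9 to 22.5). Those of Ltb did not overlap there, at 96.4% of 28 cells with Lta (81.7 to 99.9) and 77.7% of 736 cells without (74.5 to 80.7). Tnf and Lta, the neighbours, had Lta in 10.5% of 295 other T cells with Tnf (7.25 to 14.6) and 3.74% of those without (3.30 to 4.23).

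**Figure D5:**
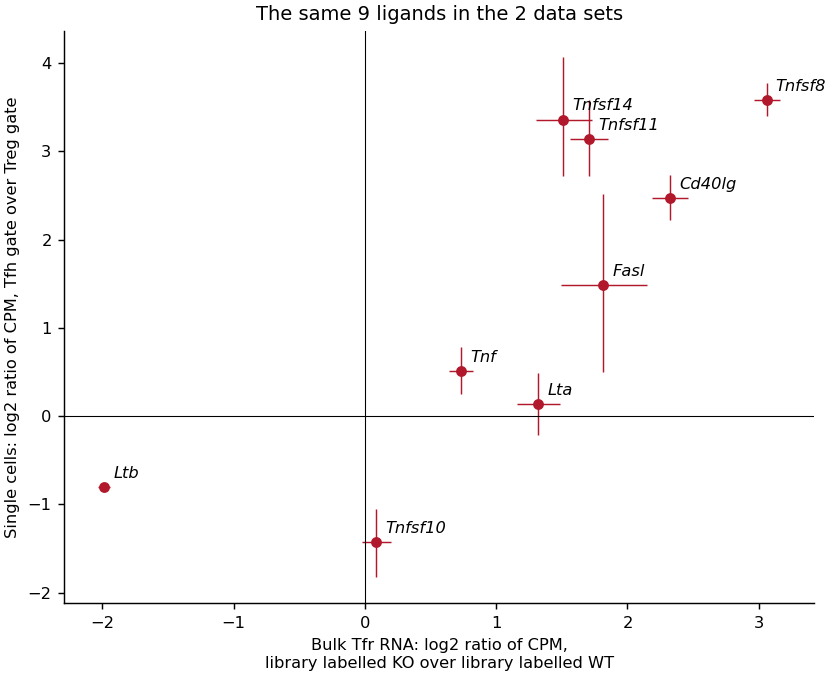
Log2 ratio of CPM of each ligand in bulk Tfr RNA (x axis, library labelled KO over library labelled WT) and in single cells (y axis, Tfh gate over Treg gate), with exact 95% counting intervals as bars. Tnfsf8 and Cd40lg are far to the upper right and Ltb is at the lower left.

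Set side by side, the bulk and single-cell ratios can be read per ligand; they share no sample. Tnfsf8 had a ratio of 8.34 between the bulk libraries (KO over WT, as labelled) and of 12 between the Tfh and Treg gates, Cd40lg of 5.01 and 5.57, and Tnf of 1.66 and 1.43. Tnfsf11 and Tnfsf14 had bulk ratios of 3.27 and 2.85, and both stood higher in the Tfh gate. Their Treg levels were low, and that of Tnfsf14 was not separated from background. Fasl had a bulk ratio of 3.52 and no stable direction between the gates. Ltb was below 1 in both, at 0.253 and 0.574. Lta, by contrast, was 2.50 in bulk and 1.10 between the gates (0.859 to 1.40), and Tnfsf10 was 1.06 in bulk and 0.371 between the gates. The ligand values of the bulk libraries cannot be assigned to a cell type from these data.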

How the data were processed

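Values of 3 of the 11 samples were used; the rest are not analysed here. Trizol RNA and the NEBNext Ultra kit served the bulk libraries and version 2 of the 10x 3′ kit the cells, per the labels' protocols. Per the submitters' processing notes, tools of the series include TopHat, Cufflinks, Cell Ranger 2.1.0 and Seurat 2, with builds mm9 and mm10 and no roles; the matrix names software version 3.1.0, per the file headers. For the bulk table, the counting tool and strand setting are unknown here (not given in the sources used). In the deposited bulk table the values are counts per gene. It also holds the authors' CPM, the authors' ratio (fold change) and its log2, and the authors' p-values, which come from 1 library per group and are not used. The column for WT carries a number its sample title lacks; no other WT Tfr RNA sample is named. The deposited matrix holds UMI counts.

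CPM were computed from the counts. Ratios have exact conditional binomial intervals, summed UMIs exact Poisson ones and shares Clopper-Pearson ones, at 95%. A floor of 3 counts is 0.108 CPM (library labelled KO) or 0.166 CPM (library labelled WT). Bulk reads carry no molecular identifiers and so are not independent molecules. Genes were counted at 2-fold on log2(CPM + 1), with at least 5 CPM (bulk) or 20 CPM (single cells) in 1 of the groups compared. For 13 symbols on more than 1 line, that with the highest level was taken.

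Of 15002 barcodes, 1812 with under 500 genes or at least 10% mitochondrial UMIs were left out, then the 1306 cells in the top 10% of Scrublet doublet scores (scanpy 1.11.5), and 1373 cells without Cd3d, Cd3e, Cd3g and Cd4 or with at least 3 UMIs of B, plasma or myeloid genes, leaving 10511. Counting steps were tested on simulated data. TMM factors came from edgeR 4.0.16. RefSeq gave spans and promoters (GRCm38.p6).

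The rule was to give all 9 members in every comparison, but several comparisons are given for some members only. These are the comparisons with B cells, with other T cells and with cytotoxic cells, the order over exclusive gates and the co-detection of pairs. From lists, genes past 2-fold or the 2 furthest apart are named, with values of Tnfrsf1b, Tnfrsf8 and Ascl2 added after they were seen. The state gates were set beside all triple negative cells after the data were seen. The genes most like each member, and some state gates, are not reported here. Members and lists were chosen with earlier results of these data known.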

Additional observations from a re-analysis of the deposited data

How the results depend on the processing

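No paired analysis was possible because each group analysed has 1 library. Under TMM scaling, median-of-ratios scaling, a pseudocount of 0.5 CPM, a limit of 1 CPM and no limit, the counts of 6 ligands at least 2-fold higher and 1 lower in the library labelled KO stayed the same. TMM moved the median log2 ratio of all genes to 0.11 and median-of-ratios scaling to 0.18, and ligand values moved by about as much, with no change of sign; higher genes were 22.2% of all genes past 2-fold, and 37.6% and 45.9% under these scalings.

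In single cells, counts of ligands 2-fold apart kept their value under a requirement of 3 UMIs of T cell genes. With a limit of 200 genes, 3 ligands were higher in the Tfr gate than in the Treg gate, in place of 2. With cells under 5% mitochondrial UMIs, which left 317 Tfh cells, 2 ligands were lower in the Tfh gate than in the Treg gate, Ltb among them at 490 CPM in the Tfh gate and 1017 CPM in the Treg gate, and 1 was higher in the Tfr gate than in the Treg gate. Without removal by doublet score, 3 ligands were higher and 0 lower in the Tfr gate than in the Treg gate. With at least 2 UMIs of every marker, 1 ligand was higher in the Tfr gate than in the Treg gate and 1 lower than in the Tfh gate. The cause was not tested. Of 180 CPM values by gate under alternatives, 11 moved by over 1.5 times, among them Tnfsf8 in the Tfr gate at 63.6 CPM under 5% mitochondrial UMIs (101 CPM with the limit of 10%). With at least 2 UMIs of every marker Fasl stood at 0.274 CPM in the Tfh gate and 0.694 CPM in the Treg gate, against 3.23 and 1.15 CPM otherwise. The order was opposite, but 0.274 CPM lies under the 0.404 CPM that 3 counts give over the full Tfh gate, so no reversal is shown. Fasl in the Tfh gate rests on 24 UMIs and the Tfr gate on 87 cells, which limits both.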
